A study of Rattus norvegicus with 12 samples.

Results

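The genes described here are 46 genes of the cell cycle, 14 that act in DNA replication and 32 that act in mitosis, measured in the whole lung of rats with left heart failure and of sham-operated rats, with and without the drug ketotifen. They were given as a list of symbols, and every probe set of the array whose only annotated symbol was on the list was taken. Probe sets that answered this rule numbered 60 and stood for 42 of the 46 genes. Rrm2, Nek2, Ndc80 and Tpx2 had no probe set of their own by this rule. A probe set was tested when its log2 value was at least 4 on at least 3 of the 12 arrays, since the values flatten near background at about 2 to 4, and 33 probe sets of 31 members met this, among 16536 of all 31042. Of these 31 genes 10 were replication genes and 21 mitotic genes, and the brightest kept probe set of each gene is the one described unless another is named.

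Whole-lung RNA of 12 male rats of like age, of the Sprague-Dawley strain, was hybridized to Affymetrix rat expression arrays, 1 for each lung and 3 in each of 4 groups. Heart failure was produced by banding: a clip was set on the supracoronary aorta of juvenile rats weighing 91 ± 9 g, and lungs were taken 9 weeks later, with congestive heart failure (CHF in the labels) established; its ejection fraction was preserved, and pulmonary hypertension had followed. Sham rats had the operation without the clip. The 4 groups are sham with placebo, CHF with placebo, sham with ketotifen and CHF with ketotifen; ketotifen, an antihistamine used as a mast cell stabilizer, was given in the drinking water at 1 mg per kg of body weight per day from the first day after surgery. The series' design text calls the CHF rats without the drug untreated, where the sample labels say placebo. The labels do not state for every array that it came from a separate rat, so the p-values measure the spread between these arrays.

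A dividing cell first copies its DNA and then separates the copies. Origins are licensed by loading the MCM ring (Mcm2 to Mcm7), which geminin (Gmnn) keeps from being loaded again, and the ring then opens the helix for polymerases that are held on DNA by the sliding clamp Pcna, with deoxynucleotides supplied by ribonucleotide reductase and thymidylate synthase. In mitosis Cdk1 with its cyclins, the Aurora and polo kinases, the spindle checkpoint, kinesin motors and the anaphase-promoting complex condense, align and part the chromosomes, after which Ect2, Racgap1, Prc1 and Kif23 set the site of cytokinesis. Genes of the replication group are known targets of E2F factors in late G1, and genes of the mitotic group are known for a CHR element and CCAAT boxes, bound by the DREAM and MuvB complexes and by NF-Y, that delay their transcription to G2 and mitosis. Most cells of an adult lung are not dividing.

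Promoter sequences of 6 members show where these motifs lie and how far they mix, 4 mitotic genes that were called in the results that follow and 2 of the MCM ring. Each is the 150 bases before the RefSeq transcription start in the GRCr8 assembly, 5′ to 3′ on the gene's strand, at chr20:19265143-19265292 (plus strand) for Cdk1, chr17:13727520-13727669 (minus) for Cks2, chr2:33655226-33655375 (minus) for Ccnb1, chr4:159321053-159321202 (plus) for Cdca3, chr19:13488663-13488812 (plus) for Mcm5 and chr13:42404353-42404502 (minus) for Mcm6. Capitals mark whole matches, on either strand, to the CHR (TTTGAA or TTCGAA), to CCAAT, or to an E2F element, which was taken as TTCCCGC or TTGGCGC or TTCGCGC or TTGCCGC.
Cdk1: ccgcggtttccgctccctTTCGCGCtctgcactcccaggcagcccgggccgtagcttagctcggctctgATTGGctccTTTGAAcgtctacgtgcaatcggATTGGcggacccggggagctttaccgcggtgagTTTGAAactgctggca
Cks2: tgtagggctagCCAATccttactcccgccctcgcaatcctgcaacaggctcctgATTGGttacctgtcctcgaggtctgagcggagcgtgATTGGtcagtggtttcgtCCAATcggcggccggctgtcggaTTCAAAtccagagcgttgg
Ccnb1: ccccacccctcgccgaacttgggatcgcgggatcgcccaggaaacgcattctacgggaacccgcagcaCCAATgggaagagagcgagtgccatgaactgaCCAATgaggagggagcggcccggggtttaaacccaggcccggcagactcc
Cdca3: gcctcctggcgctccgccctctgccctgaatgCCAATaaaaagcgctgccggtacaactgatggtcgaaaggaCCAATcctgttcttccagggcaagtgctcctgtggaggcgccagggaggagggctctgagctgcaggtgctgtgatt
Mcm5: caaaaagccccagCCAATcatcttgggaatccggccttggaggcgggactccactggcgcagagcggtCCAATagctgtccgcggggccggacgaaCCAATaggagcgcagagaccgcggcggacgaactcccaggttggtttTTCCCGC
Mcm6: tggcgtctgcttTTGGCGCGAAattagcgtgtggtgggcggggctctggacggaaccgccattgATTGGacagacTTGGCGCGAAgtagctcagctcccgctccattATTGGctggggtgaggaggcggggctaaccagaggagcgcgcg
Cdk1 carries 2 CHR matches, 16 and 72 bases before the start, beside 2 CCAAT matches read on the other strand and an E2F match 132 bases before the start, and Cks2 carries 1 CHR match 19 bases before the start with 4 CCAAT matches. Ccnb1 and Cdca3 hold CCAAT matches and no letters of the CHR in this stretch. In Mcm6 each long run of capitals is a pair of overlapping E2F matches on opposite strands, and in Mcm5 an E2F match ends at the start. These stretches also hold CCAAT matches, 3 in Mcm5 and 2 in Mcm6, and no CHR letters.

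In the window from 250 bases before to 50 after the start, 39 of the 46 members had a promoter in the RefSeq table. The CHR letters were in 18 of 27 mitotic members (66.7%) and in 3 of 12 replication members (25%), against 19.7% of all 33469 promoters of the same length. E2F letters ran the other way, in 6 of 27 mitotic members (22.2%) and 8 of 12 replication members (66.7%), against 9.52% of all. CCAAT was in 74.1% of the mitotic and 58.3% of the replication members, against 37.5% of all. CHR and CCAAT stood in the same window in 15 of 27 mitotic members (55.6%) and 2 of 12 replication members (16.7%), against 7.95% of all. TATAAA was found in 1 mitotic member and in none of the 12 replication members, against 14.2% of all. The same letters were counted in 58 other mitotic genes, with the CHR in 70.7% and E2F in 20.7%, and in 42 other replication genes, with the CHR in 23.8% and E2F in 71.4%. Both strands were searched, matches to CCAAT and E2F can share bases, and a match is a description of letters, not of a bound site.

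**Figure D1:**
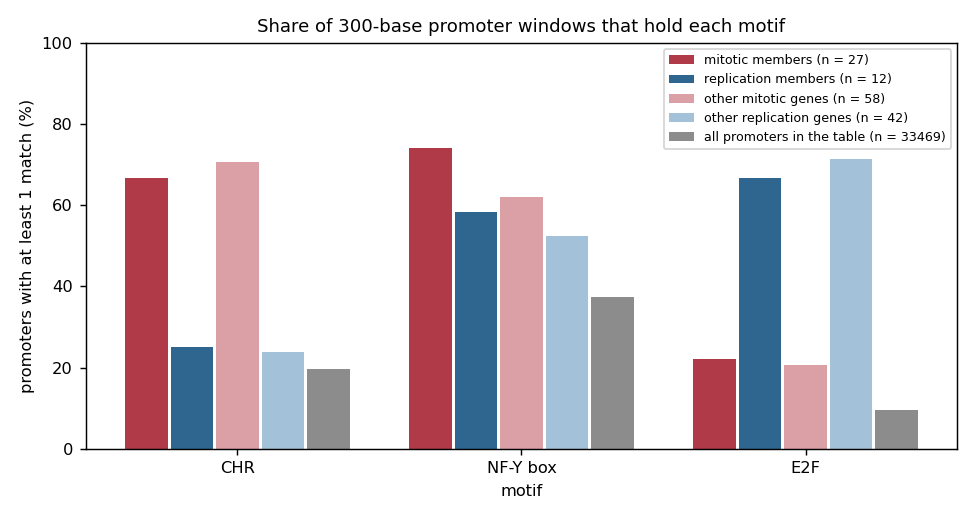
Share of promoters with at least 1 match to each motif (vertical axis, percent) for the CHR, the CCAAT box bound by NF-Y, and E2F elements; bars stand for mitotic members, replication members, the other mitotic and replication genes, and all 33469 promoters of the table. The CHR bar of the mitotic members reaches 66.7% and that of the replication members 25%, and the E2F bars stand at 22.2% and 66.7%.

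Several features of the arrays bear on the values below. Between 15809 and 16056 probe sets reached log2 4 per array. The lung epithelium markers, 8 of 9 on the array, averaged 12.97 to 13.88 on every array. The 3′ minus 5′ signal of beta-actin, which widens as RNA degrades, was 3.90 to 4.52 on sham placebo arrays 2 and 3 and sham ketotifen array 2, and 2.90 to 3.45 on the other 9. The first 2 of these 3 also had the highest mean of the 5 measured ciliated cell markers, 9.63 and 8.44, against 5.52 to 7.10 elsewhere. Of all pairs of arrays, CHF ketotifen 1 and 3 differed least (SD of the difference over all kept probe sets 0.26, with 0.40 for the next pair), and results are given with them averaged where that changes a call.

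Mitotic transcripts were high in the 3 CHF ketotifen lungs and in 1 CHF placebo lung. The mean log2 of the 21 mitotic genes was 4.27, 4.37 and 4.28 in sham placebo lungs, 5.85, 4.57 and 4.37 in CHF placebo lungs, 4.13, 4.14 and 4.32 in sham ketotifen lungs and 6.66, 6.32 and 6.49 in CHF ketotifen lungs. CHF placebo lung 1 lay between the 2 sets, more than 1 log2 unit above the other lungs of its group. For the 10 replication genes the means were 6.58, 6.63 and 6.51 in sham placebo, 7.46, 6.90 and 6.89 in CHF placebo, 6.80, 7.0 and 6.86 in sham ketotifen and 7.57, 7.68 and 7.34 in CHF ketotifen. Here CHF placebo lung 1 was above CHF ketotifen lung 3, and the range over the 12 lungs was narrower. In whole lung a larger number of dividing cells and more RNA per cell cannot be told apart.

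**Figure D2:**
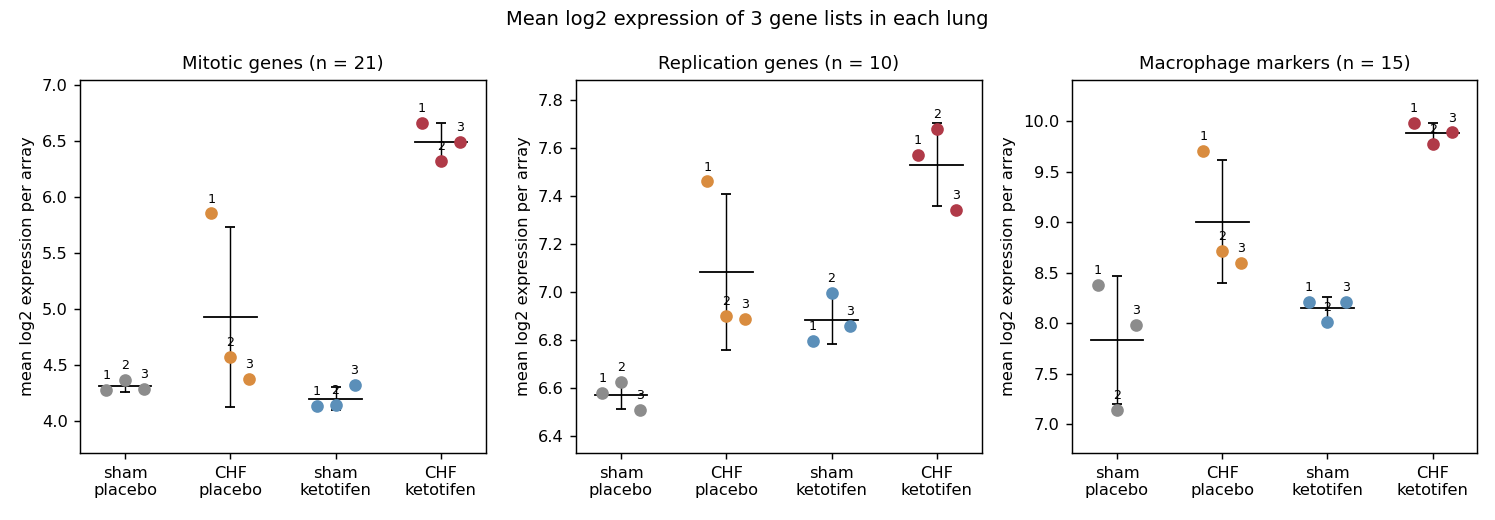
Mean log2 expression per array (vertical axis) of the 21 mitotic genes, the 10 replication genes and 15 macrophage markers in the 4 groups; points are lungs with their replicate number, lines are group means and bars the SD of 3 lungs. The mitotic means of the CHF ketotifen lungs lie between 6.32 and 6.66 and that of CHF placebo lung 1 at 5.85, with every other lung at 4.57 or below.

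CHF placebo lung 1 was the highest of its group for 29 of the 31 members and above all 6 sham lungs for 28. CHF placebo lung 2 was above all sham lungs for 12 members and lung 3 for 5. The median SD of a member over 3 lungs was 0.75 in the CHF placebo group, against 0.27 in sham placebo, 0.23 in sham ketotifen and 0.25 in CHF ketotifen. The tests below pooled the spread over the 4 groups. The wide CHF placebo spread thus entered every comparison, also those without CHF placebo lungs. All 3 CHF ketotifen lungs were above the 9 others for 14 of 21 mitotic genes and for 0 of 10 replication genes, against 5.41% of all probe sets. Among the 14 were Ccnb1, Ect2, Kif20a, Melk and Ube2c. They passed the filter on low values only with the CHF ketotifen arrays, which favours this order. No replication gene passed in that way.

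**Figure D3:**
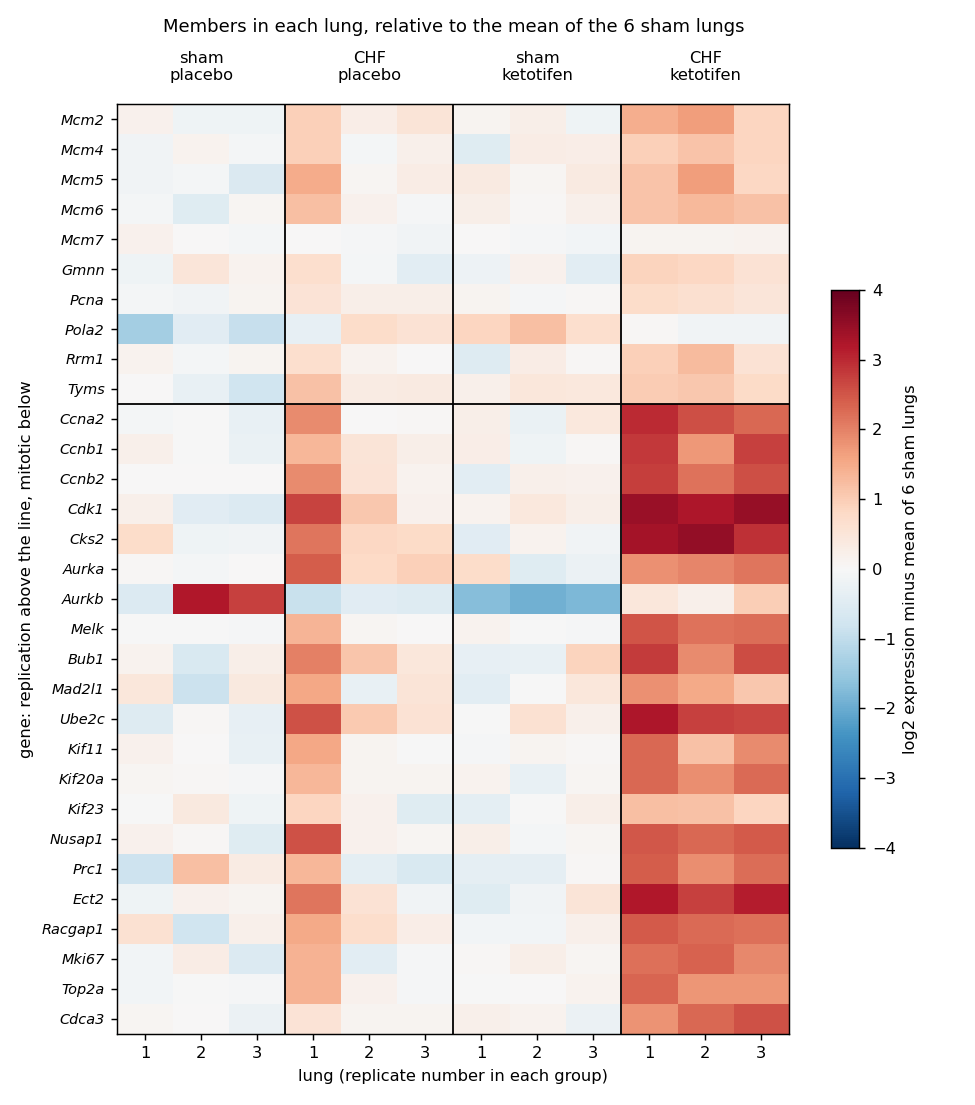
Log2 expression of the 31 members in each of the 12 lungs, drawn as the difference from the mean of the 6 sham lungs (colour, from -4 in blue to 4 in red), with replication genes above the line and mitotic genes below. The 3 CHF ketotifen columns and the first CHF placebo column are red over most mitotic rows, and Aurkb and Pola2 depart from the others.

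Heart failure in placebo rats left no member past the threshold. Differences were tested with limma over all 16536 kept probe sets, and a member counted as called where its p after Benjamini-Hochberg adjustment was under 0.05; 0.169% of all probe sets were called in this comparison. The median difference, CHF minus sham, was 0.73 for the mitotic genes and 0.49 for the replication genes, with 27 of 31 members above 0 against 51.8% of all probe sets. By an unadjusted p under 0.05 limma counted 13 of the 31, against 3326 of all 16536 probe sets. The values of the 3 CHF lungs lay above those of the 3 sham lungs for 15 members, against 12.7% of all probe sets. Without CHF placebo lung 1 the mitotic median was 0.17 and the replication median 0.25. Weighting the arrays by their quality gave calls for 10 of the 33 member probe sets and for 19.6% of all probe sets. Leaving out sham placebo lung 1 gave 2 of 33 and 9.05% of all.

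With ketotifen the contrast between CHF and sham lungs was the widest of the comparisons for these genes. Of the 31 members 24 were higher in CHF by the adjusted test, against 6.36% of all probe sets called higher, and 1, Pola2, was lower, against 6.61%. For 30 members the 3 CHF lungs were all above the 3 sham lungs (19.2% of all probe sets), and for Pola2 all below (20.8%). The higher calls covered 19 of the 21 mitotic genes and 5 of the 10 replication genes. The median difference was 2.32 for the mitotic genes and 0.93 for the replication genes, against -0.03 over all probe sets. Of the 19, 6 genes (Ccnb1, Ect2, Kif11, Kif20a, Melk and Ube2c) had passed the filter on low values only with the help of the CHF ketotifen arrays, so that their calls add little. Among the other 15 mitotic genes 13 were called, with a median of 2.32. Of the 9 mitotic genes at log2 4 or more on all 12 arrays 8 were called. By probe set 27 of 33 were called, 16 of them in every run that left out 1 array, and 16 when the 3 arrays of widest beta-actin difference were left out together, where 5.95% of all probe sets were called. With CHF ketotifen lungs 1 and 3 averaged 18 were called (5.76% of all), which left 15 mitotic and 2 replication genes higher and lost the lower call of Pola2.

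Within CHF, lungs of ketotifen rats had higher mitotic transcripts than lungs of placebo rats, and 5 genes passed: Cdca3, Melk, Cks2, Kif20a and Ccnb1. In all, 0.822% of probe sets were called higher in this comparison. Members with a difference above 0 numbered 30 of 31, against 44.8% of all probe sets, and the groups did not overlap for 16 of the 31, 15 of them mitotic, against 9.86% of all. The median difference was 1.63 for mitotic and 0.60 for replication genes, of which 0 of 10 passed at an adjusted p under 0.05 with limma. Melk, Kif20a and Ccnb1 had passed the filter only with the CHF ketotifen arrays, as had Ect2, Kif11 and Ube2c among those not called. Of the other 15 mitotic genes 2 passed, with a median of 1.47. Of the 9 mitotic genes at log2 4 or more on all 12 arrays 1 passed. By an unadjusted p under 0.05 limma counted 24 of 31 members, 6 of them replication genes, against 2833 of all 16536 probe sets. The 24 include Ccnb1, Ect2, Kif11, Kif20a and Melk, which had passed the filter only with the CHF ketotifen arrays. Without CHF placebo lung 1, 18 of 21 mitotic and 5 of 10 replication genes were called, with medians of 2.07 and 0.89, and by probe set the count went from 6 to 25 of 33, while the share of all probe sets called went from 1.22% to 7.37%. Leaving out any other single lung of these groups gave 1 to 3 member probe sets, and averaging CHF ketotifen lungs 1 and 3 gave 1, Cdca3, with 0.532% of all called.

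**Figure D4:**
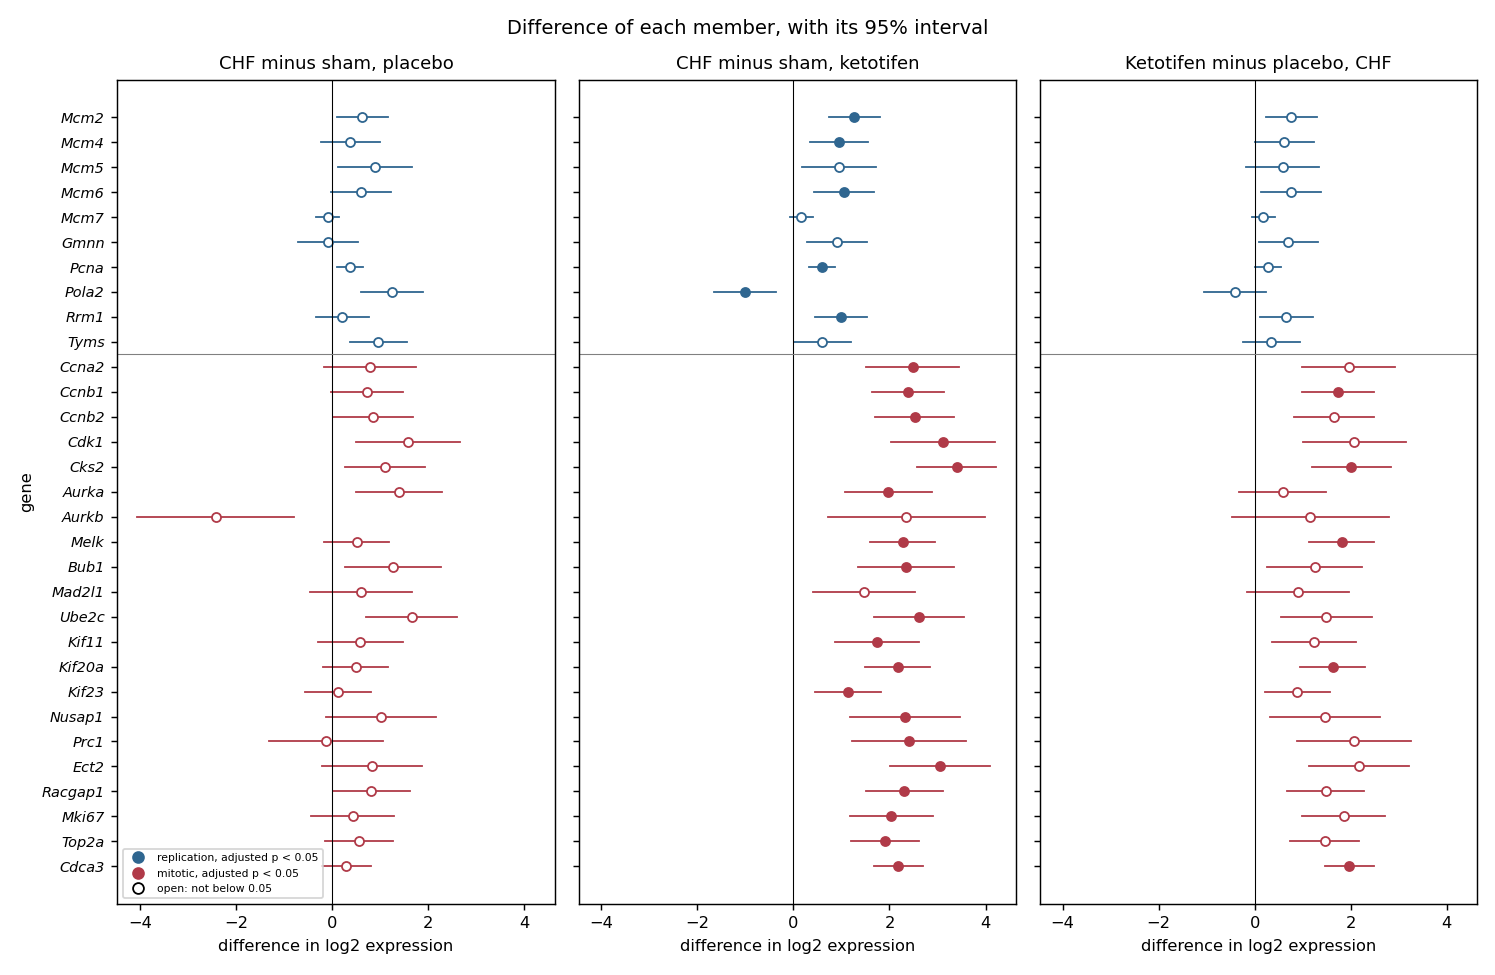
Difference in log2 expression (horizontal axis) of each member in 3 comparisons, with its 95% interval from limma; filled points passed an adjusted p under 0.05, blue stands for replication and red for mitotic genes. In CHF against sham with ketotifen 19 of 21 mitotic points are filled, in CHF against sham with placebo none is, and in the drug comparison within CHF 5 are.

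In sham rats the drug moved no member past the threshold, and 0.0847% of all probe sets were called. An unadjusted limma p under 0.05 was reached by 3 of 31 members, against 2310 of all 16536 probe sets. The median difference was 0.05 for mitotic and 0.09 for replication genes. Array weights gave 3 of 33 member probe sets and 4.25% of all, and leaving out sham placebo lung 1 gave 2 of 33 and 4.37% of all. The test of whether the CHF effect differed by drug called 1 member, Cdca3, against 0.369% of all probe sets; the median of this difference of differences was 1.60 for the mitotic and 0.35 for the replication genes. Without CHF placebo lung 1 it called 12 mitotic genes higher and 1 replication gene, Pola2, lower, with 1.83% of all probe sets called. Without sham placebo lung 1 it called 3 member probe sets (1.18% of all), and with array weights 17 (6.85% of all). Leaving out in turn CHF placebo lung 2 or 3, any sham ketotifen lung, sham placebo lung 3, or CHF ketotifen lung 2 or 3 left 0. Averaged over both treatments, CHF lungs were higher than sham lungs for 24 of 31 members, 17 mitotic and 7 replication, against 11.0% of all probe sets. By probe set 26 of 33 were called, with 21.0% of all. Without the arrays of wide beta-actin difference, sham placebo 2 and 3 and sham ketotifen 2, the mitotic median was 1.39 instead of 1.56. Far fewer probe sets were called in that run, among the members and among all. Sham placebo array 1 then stood alone for its group, so the parts of fewer arrays and of the beta-actin difference cannot be told apart. With CHF ketotifen lungs 1 and 3 averaged 24 of the 33 were called.

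Of the 6 licensing and helicase genes kept, Mcm2, Mcm4 and Mcm6 rose in CHF with ketotifen and 3 did not pass. For Mcm2, a subunit of the MCM ring that opens DNA at the fork, log2 values were 5.99, 5.65 and 5.64 in sham placebo, 6.76, 6.07 and 6.32 in CHF placebo, 5.93, 6.04 and 5.66 in sham ketotifen and 7.26, 7.47 and 6.69 in CHF ketotifen lungs. Only CHF placebo lung 1 reached into the range of the CHF ketotifen lungs, exceeding the lowest of them. Mcm2 was 2.41-fold higher in CHF with ketotifen (log2 1.27, SE 0.24, limma adjusted p = 0.0113) and was called in every run that left out 1 array. Mcm6, also of the ring, was at 5.80, 5.40 and 5.96 with sham and placebo, 7.09, 6.05 and 5.84 with CHF and placebo, 6.10, 5.94 and 6.07 with sham and ketotifen and 7.02, 7.17 and 7.04 with CHF and ketotifen. Again CHF placebo lung 1 reached the CHF ketotifen values. The Mcm6 difference with ketotifen was 1.04 (SE 0.28, limma adjusted p = 0.0365). Mcm4, a further subunit, read 6.95, 7.24 and 7.01 in sham placebo lungs, 8.05, 7.01 and 7.29 in CHF placebo lungs, 6.60, 7.38 and 7.36 in sham ketotifen lungs and 8.04, 8.22 and 7.94 in CHF ketotifen lungs. Among the CHF ketotifen values lay that of CHF placebo lung 1. Its difference with ketotifen was 0.95 (SE 0.28, limma adjusted p = 0.0457). Mcm4 and Mcm6 lost the call in each of the 6 runs that left out 1 array.

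For Mcm5, another ring subunit, log2 values were 4.94, 5.02 and 4.52 in sham placebo, 6.58, 5.17 and 5.40 in CHF placebo, 5.44, 5.17 and 5.44 in sham ketotifen and 6.22, 6.77 and 5.91 in CHF ketotifen lungs. Between CHF ketotifen lungs 1 and 2 lay CHF placebo lung 1. The Mcm5 difference with ketotifen was 0.95 (SE 0.35, limma adjusted p = 0.0902), that with placebo was 0.89, and their mean of 0.92 passed (limma adjusted p = 0.0249). Mcm7, the last of the ring subunits kept, was at 9.00, 8.85 and 8.73 with sham and placebo, 8.83, 8.78 and 8.69 with CHF and placebo, 8.83, 8.79 and 8.73 with sham and ketotifen and 8.93, 8.93 and 8.97 with CHF and ketotifen. All 12 values lay between 8.69 and 9.00, and the CHF minus sham difference was 0.16 with ketotifen (95% interval -0.07 to 0.40) and -0.09 with placebo (-0.33 to 0.14). The upper bound for Mcm7 with ketotifen was below the lower bounds for Mcm2 and Mcm6, 0.74 and 0.42, and near that for Mcm4, 0.34; differences between genes were not tested. Gmnn, geminin, which blocks a further round of licensing, read 5.66, 6.33 and 5.97 in sham placebo lungs, 6.51, 5.76 and 5.43 in CHF placebo lungs, 5.63, 6.02 and 5.42 in sham ketotifen lungs and 6.73, 6.65 and 6.42 in CHF ketotifen lungs. The 3 CHF ketotifen lungs were the highest of the 12 apart from CHF placebo lung 1. Geminin's difference with ketotifen, 0.91 (SE 0.28), had a limma adjusted p of 0.0562.

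Among the fork and nucleotide genes Pcna, the sliding clamp, read 9.94, 9.87 and 10.12 in sham placebo lungs, 10.55, 10.26 and 10.25 in CHF placebo lungs, 10.12, 9.95 and 10.04 in sham ketotifen lungs and 10.75, 10.66 and 10.51 in CHF ketotifen lungs. The CHF ketotifen lungs were above all 6 sham lungs and 2 of the 3 were above every CHF placebo lung. Pcna was 1.52-fold higher in CHF with ketotifen (log2 0.60, SE 0.12, limma adjusted p = 0.0146) and 1.30-fold higher with placebo (log2 0.38, limma adjusted p = 0.147). For Rrm1, the large subunit of ribonucleotide reductase, log2 values were 7.61, 7.36 and 7.56 in sham placebo, 8.11, 7.60 and 7.45 in CHF placebo, 6.94, 7.74 and 7.49 in sham ketotifen and 8.42, 8.70 and 8.01 in CHF ketotifen lungs. CHF ketotifen lungs were above every sham lung, and only CHF placebo lung 1 came among them. The Rrm1 difference with ketotifen was 0.99 (SE 0.25, limma adjusted p = 0.0291), called in 2 of 6 runs that left out 1 array. Tyms, thymidylate synthase, was at 3.97, 3.67 and 3.16 with sham and placebo, 5.12, 4.27 and 4.31 with CHF and placebo, 4.17, 4.40 and 4.37 with sham and ketotifen and 4.96, 5.05 and 4.73 with CHF and ketotifen. CHF lungs lay above sham lungs within each treatment. Averaged over both, the Tyms difference was 0.78 (SE 0.19, limma adjusted p = 0.0184), while neither treatment passed alone.

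Pola2, which encodes the regulatory subunit of DNA polymerase alpha, ran against the other replication genes. Its log2 values were 5.98, 6.89 and 6.42 in sham placebo, 7.02, 8.08 and 7.92 in CHF placebo, 8.22, 8.56 and 8.02 in sham ketotifen and 7.40, 7.19 and 7.20 in CHF ketotifen lungs. With placebo the CHF lungs were all above the sham lungs, and with ketotifen all below them. The difference was 1.24 with placebo (SE 0.29, limma adjusted p = 0.101) and -1.0 with ketotifen (SE 0.29, limma adjusted p = 0.0465). The difference between these, -2.24 (SE 0.41, limma adjusted p = 0.0549), did not pass, and the fall with ketotifen was lost in each of the 6 runs that left out 1 array. Sham ketotifen lungs read 1.84 above sham placebo lungs (limma adjusted p = 0.0512). Prim1, a primase subunit of the same polymerase complex, rose in CHF with ketotifen by 1.11 (SE 0.19, limma adjusted p = 0.00726).

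The mitotic cyclins, Cdk1 and their small partner Cks2 had the largest median difference of any role, 2.52 in CHF with ketotifen, and all 5 were called higher there. Cdk1, the kinase that drives entry into mitosis, read 3.98, 3.33 and 3.26 in sham placebo lungs, 6.48, 4.87 and 3.95 in CHF placebo lungs, 3.94, 4.20 and 4.02 in sham ketotifen lungs and 7.22, 7.01 and 7.28 in CHF ketotifen lungs. No CHF ketotifen lung fell below 7.01, and CHF placebo lung 1 was the nearest of the others. Cdk1 was 8.68-fold higher in CHF with ketotifen (log2 3.12, SE 0.49, limma adjusted p = 0.00508), log2 1.58 higher with placebo (limma adjusted p = 0.136) and 4.21-fold higher with ketotifen within CHF (log2 2.07, limma adjusted p = 0.0692). For Cks2, a small protein bound to cyclin-dependent kinases, log2 values were 5.73, 4.84 and 4.87 in sham placebo, 7.14, 5.84 and 5.76 in CHF placebo, 4.57, 5.16 and 4.86 in sham ketotifen and 8.32, 8.52 and 7.93 in CHF ketotifen lungs. All CHF ketotifen lungs were above all other lungs. Cks2 was 10.5-fold higher in CHF with ketotifen (log2 3.40, SE 0.38, limma adjusted p = 0.000995), the largest difference of a member, and 4.03-fold higher with the drug within CHF (log2 2.01, SE 0.38, limma adjusted p = 0.0290).

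Ccnb1, cyclin B1, was at 3.00, 2.78 and 2.53 with sham and placebo, 4.15, 3.31 and 3.04 with CHF and placebo, 3.06, 2.62 and 2.85 with sham and ketotifen and 5.62, 4.55 and 5.53 with CHF and ketotifen. Lungs of the other 3 groups, CHF placebo lung 1 apart, were at 3.31 or below, where values are near background and a fold is uncertain; no fold is given where the lower group averaged under log2 4. Ccnb1 differed by 2.39 in CHF with ketotifen (SE 0.34, limma adjusted p = 0.00331) and by 1.74 with the drug within CHF (SE 0.34, limma adjusted p = 0.0360). It had passed the filter on low values only with the CHF ketotifen arrays, so that these calls add little. Ccnb2, cyclin B2, read 5.26, 5.27 and 5.27 in sham placebo lungs, 7.15, 5.81 and 5.40 in CHF placebo lungs, 4.84, 5.47 and 5.43 in sham ketotifen lungs and 8.02, 7.44 and 7.85 in CHF ketotifen lungs. CHF ketotifen lungs were above all others. Its differences were 2.52 in CHF with ketotifen (SE 0.38, limma adjusted p = 0.00407) and 1.65 with the drug within CHF (limma adjusted p = 0.0622). For Ccna2, cyclin A2, which acts in S phase and G2, log2 values were 3.71, 3.77 and 3.50 in sham placebo, 5.69, 3.82 and 3.84 in CHF placebo, 4.03, 3.53 and 4.21 in sham ketotifen and 6.77, 6.36 and 6.08 in CHF ketotifen lungs. CHF placebo lung 1 was below the 3 CHF ketotifen lungs and above the rest. Ccna2, near background in several sham lungs, was higher in CHF with ketotifen (log2 2.48, SE 0.44, limma adjusted p = 0.00805), and 1.95 higher with the drug within CHF (limma adjusted p = 0.0598).

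Of the mitotic kinases, Aurka and Melk were called and Aurkb did not follow them. Aurka, Aurora A, the kinase of spindle poles, was at 5.05, 4.91 and 5.01 with sham and placebo, 7.42, 5.78 and 5.95 with CHF and placebo, 5.73, 4.50 and 4.75 with sham and ketotifen and 6.81, 6.95 and 7.13 with CHF and ketotifen. CHF placebo lung 1 was the highest of all 12, and all 3 CHF placebo lungs were above all sham lungs. Aurka was 3.93-fold higher in CHF with ketotifen (log2 1.97, SE 0.41, limma adjusted p = 0.0152) and 2.63-fold higher with placebo (log2 1.39, limma adjusted p = 0.126). Averaged over both, it rose by 1.68 (limma adjusted p = 0.00651), and within CHF it differed by 0.58 with the drug (95% interval -0.32 to 1.49). Melk, a kinase of proliferating cells, read 2.31, 2.32 and 2.29 in sham placebo lungs, 3.69, 2.42 and 2.36 in CHF placebo lungs, 2.46, 2.32 and 2.28 in sham ketotifen lungs and 4.85, 4.49 and 4.55 in CHF ketotifen lungs. All 6 sham lungs were between 2.28 and 2.46, near background. Melk differed by 2.28 in CHF with ketotifen (SE 0.31, limma adjusted p = 0.00242) and by 1.81 with the drug within CHF (SE 0.31, limma adjusted p = 0.0173). It had passed the filter on low values only with the CHF ketotifen arrays, so that these calls add little.

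Aurkb encodes Aurora B, the kinase of the chromosomal passenger complex. Its log2 values were 6.70, 10.45 and 9.99 in sham placebo, 6.35, 6.78 and 6.74 in CHF placebo, 5.54, 5.33 and 5.44 in sham ketotifen and 7.68, 7.43 and 8.24 in CHF ketotifen lungs. Sham placebo lungs 2 and 3 stood above every other lung, the next being CHF ketotifen lung 3. They are the lungs with the highest ciliated cell markers, 9.63 and 8.44, and with a wide beta-actin difference, and the part of either in these values was not tested. The CHF ketotifen lungs were the highest of the remaining 10. Aurkb's differences were 2.35 in CHF with ketotifen (SE 0.74, limma adjusted p = 0.0595) and -2.42 with placebo (SE 0.74, limma adjusted p = 0.134). With the drug it differed by -3.61 in sham lungs (limma adjusted p = 0.108) and by 1.16 in CHF lungs (limma adjusted p = 0.453), each without overlap of the groups.

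**Figure D5:**
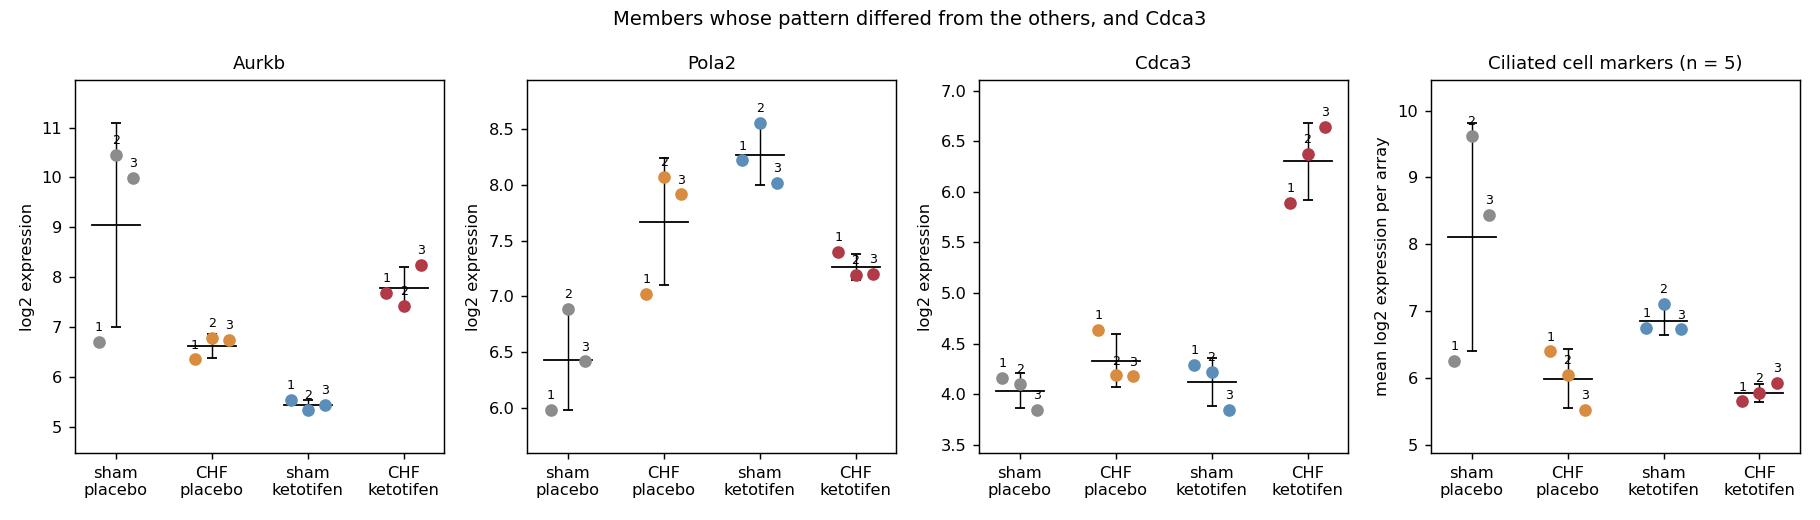
Log2 expression (vertical axis) of Aurkb, Pola2 and Cdca3, and the mean of 5 ciliated cell markers, in the 4 groups; points are lungs with their replicate number, lines are means and bars the SD of 3 lungs. Sham placebo lungs 2 and 3 are highest both for Aurkb (10.45 and 9.99) and for the ciliated markers (9.63 and 8.44), and all 3 CHF ketotifen lungs are highest for Cdca3.

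Of the 3 checkpoint and anaphase-promoting genes kept, Ube2c and Bub1 were called higher in CHF with ketotifen. Ube2c had passed the filter on low values only with the CHF ketotifen arrays, so that its call adds little. For Ube2c, the E2 enzyme with which the anaphase-promoting complex tags cyclins, log2 values were 2.29, 2.87 and 2.47 in sham placebo, 5.35, 3.86 and 3.38 in CHF placebo, 2.79, 3.44 and 3.02 in sham ketotifen and 6.04, 5.55 and 5.49 in CHF ketotifen lungs. All CHF lungs of placebo rats were above the sham placebo lungs, and all CHF ketotifen lungs were above all others. The sham lungs were near background, so that a fold is uncertain. Ube2c differed by 2.61 in CHF with ketotifen (SE 0.43, limma adjusted p = 0.00595) and by 1.65 with placebo (limma adjusted p = 0.112). Bub1, a kinase of the spindle checkpoint, was at 4.02, 3.26 and 4.11 with sham and placebo, 5.89, 4.97 and 4.33 with CHF and placebo, 3.55, 3.58 and 4.76 with sham and ketotifen and 6.66, 5.77 and 6.50 with CHF and ketotifen. Here CHF placebo lung 1 was above CHF ketotifen lung 2. Bub1, near background in some sham lungs, was higher in CHF with ketotifen (log2 2.35, SE 0.45, limma adjusted p = 0.0116). Mad2l1, whose product holds back the anaphase-promoting complex, was at 5.75, 5.44 and 4.99 in CHF ketotifen lungs and 3.51, 3.89 and 4.39 in sham ketotifen lungs, a difference of 1.47 (SE 0.48, limma adjusted p = 0.0672).

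All 7 spindle and cytokinesis genes kept rose in CHF with ketotifen. Among them Ect2, Kif20a and Kif11 had passed the filter on low values only with the CHF ketotifen arrays, so that their calls add little. Ect2, which activates RhoA at the cleavage furrow, read 3.26, 3.61 and 3.57 in sham placebo lungs, 5.59, 4.01 and 3.32 in CHF placebo lungs, 2.97, 3.31 and 3.96 in sham ketotifen lungs and 6.64, 6.19 and 6.58 in CHF ketotifen lungs. Highest were the 3 CHF ketotifen lungs. In sham lungs Ect2 was near background. It differed by 3.06 in CHF with ketotifen (SE 0.47, limma adjusted p = 0.00485) and by 2.16 with the drug within CHF (limma adjusted p = 0.0569). For Racgap1, a partner of Ect2 and Kif23 at the midzone, log2 values were 6.11, 4.71 and 5.71 in sham placebo, 7.03, 6.20 and 5.75 in CHF placebo, 5.39, 5.38 and 5.70 in sham ketotifen and 7.94, 7.77 and 7.69 in CHF ketotifen lungs. CHF ketotifen lungs were again above all others. Its second kept probe set moved the same way, by 1.35 against 2.31 in CHF with ketotifen (limma adjusted p = 0.0444 and 0.00536). Prc1, which bundles midzone microtubules, was at 4.42, 6.43 and 5.55 with sham and placebo, 6.55, 4.85 and 4.62 with CHF and placebo, 4.87, 4.86 and 5.27 with sham and ketotifen and 7.65, 7.10 and 7.48 with CHF and ketotifen. Sham placebo lung 2 reached nearly the level of CHF placebo lung 1. Prc1 was 5.31-fold higher in CHF with ketotifen (log2 2.41, SE 0.54, limma adjusted p = 0.0194), while with placebo the difference was -0.12.

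Nusap1, a microtubule-binding protein of the spindle, read 4.30, 4.18 and 3.65 in sham placebo lungs, 6.68, 4.31 and 4.20 in CHF placebo lungs, 4.35, 4.06 and 4.21 in sham ketotifen lungs and 6.60, 6.41 and 6.58 in CHF ketotifen lungs. The highest of the 12 was CHF placebo lung 1, and the other CHF placebo lungs were among the sham values. Nusap1 was higher in CHF with ketotifen (log2 2.32, SE 0.52, limma adjusted p = 0.0201). For Kif20a, a kinesin of the midzone, log2 values were 2.43, 2.42 and 2.31 in sham placebo, 3.69, 2.48 and 2.47 in CHF placebo, 2.52, 2.06 and 2.44 in sham ketotifen and 4.65, 4.24 and 4.64 in CHF ketotifen lungs. Outside CHF ketotifen only CHF placebo lung 1 was above 2.52. Kif20a differed by 2.17 in CHF with ketotifen (SE 0.31, limma adjusted p = 0.00331) and by 1.63 with the drug within CHF (SE 0.31, limma adjusted p = 0.0306). Kif11, the kinesin that pushes spindle poles apart, was at 2.70, 2.55 and 2.23 with sham and placebo, 4.08, 2.65 and 2.52 with CHF and placebo, 2.49, 2.64 and 2.57 with sham and ketotifen and 4.82, 3.69 and 4.42 with CHF and ketotifen. CHF placebo lung 1 was above CHF ketotifen lung 2, and most other lungs were near background. Kif11 differed by 1.74 in CHF with ketotifen (SE 0.40, limma adjusted p = 0.0210). Kif23, the kinesin partner of Racgap1, read 5.93, 6.32 and 5.78 in sham placebo lungs, 6.82, 6.13 and 5.46 in CHF placebo lungs, 5.55, 5.93 and 6.17 in sham ketotifen lungs and 7.15, 7.11 and 6.81 in CHF ketotifen lungs. Just above CHF ketotifen lung 3 was CHF placebo lung 1. Its difference with ketotifen, 1.14 (SE 0.31, limma adjusted p = 0.0367), was the smallest of the mitotic genes. The calls of Kif11 and Nusap1 held in 1 of 6 runs that left out 1 array, that of Prc1 in 2 and that of Kif23 in 0.

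Among the chromosome genes Mki67, which encodes the Ki-67 antigen used to stain dividing cells, read 5.41, 5.80 and 4.97 in sham placebo lungs, 6.91, 5.10 and 5.47 in CHF placebo lungs, 5.58, 5.76 and 5.58 in sham ketotifen lungs and 7.73, 7.89 and 7.42 in CHF ketotifen lungs. The CHF ketotifen lungs were above all others, and CHF placebo lungs 2 and 3 were within the sham range. Mki67 was 4.11-fold higher in CHF with ketotifen (log2 2.04, SE 0.39, limma adjusted p = 0.0116), 3.61-fold higher with the drug within CHF (log2 1.85, limma adjusted p = 0.0511) and 1.35-fold higher in CHF with placebo (log2 0.43, limma adjusted p = 0.565). For Top2a, topoisomerase II alpha, which untangles chromosomes, log2 values were 4.66, 4.75 and 4.70 in sham placebo, 6.16, 4.93 and 4.69 in CHF placebo, 4.75, 4.78 and 4.91 in sham ketotifen and 7.09, 6.53 and 6.53 in CHF ketotifen lungs. A dimmer probe set of Top2a read 5.91, 5.49 and 5.58 in CHF ketotifen lungs and 4.82, 4.42 and 3.69 in CHF placebo lungs. For the drug within CHF the brighter gave 1.46 (SE 0.32, limma adjusted p = 0.0597) and the dimmer 1.35 (SE 0.26, limma adjusted p = 0.0360), so that only the dimmer passed. In CHF with ketotifen both passed, at 1.91 and 1.53.

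Cdca3, a mitotic gene whose product marks the kinase Wee1 for destruction, gave the firmest drug difference of the list. Its log2 values were 4.16, 4.10 and 3.84 in sham placebo, 4.64, 4.18 and 4.18 in CHF placebo, 4.29, 4.22 and 3.84 in sham ketotifen and 5.89, 6.37 and 6.64 in CHF ketotifen lungs. The CHF ketotifen lungs were more than 1 log2 unit above each of the 9 others, CHF placebo lung 1 included. Cdca3 was 3.91-fold higher with ketotifen within CHF (log2 1.97, SE 0.23, limma adjusted p = 0.00196) and 4.53-fold higher in CHF than sham with ketotifen (log2 2.18, SE 0.23, limma adjusted p = 0.000743). With placebo CHF differed from sham by 0.30 (95% interval -0.21 to 0.81, limma adjusted p = 0.498). The difference between the CHF effects, 1.88 (SE 0.33), had a limma adjusted p of 0.0409, and over the 12 runs that left out 1 array that p ranged from 0.0160 to 0.137. The drug difference within CHF was called in each of 6 such runs (adjusted p 0.00122 to 0.0179).

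The 11 members below the filter (Birc5, Cdca8, Plk1, Bub1b, Cdc20, Ttk, Hmmr, Kif2c, Ccne1, Mcm3 and Tk1) were close to background outside the CHF ketotifen lungs and were not tested. For the spindle checkpoint kinase Bub1b the lungs read 2.52, 2.56 and 2.32 in sham placebo, 3.22, 2.64 and 2.37 in CHF placebo, 2.59, 2.57 and 2.61 in sham ketotifen and 4.71, 3.67 and 3.92 in CHF ketotifen. Cdc20, the activator of the anaphase-promoting complex, was at 3.70, 2.85 and 3.88 in the CHF ketotifen lungs by 1 probe set and at 1.81 to 1.91 in the other 9. Its other probe sets lay between 2.22 and 3.59 in CHF ketotifen lungs. By its dimmer probe set Hmmr, a spindle protein that binds hyaluronan, was at 3.61, 2.03 and 4.11 in CHF ketotifen lungs. The brighter read 2.49 to 3.62 there. Mcm3 of the MCM ring was at 4.38, 3.51 and 3.56 in CHF ketotifen lungs. Thymidine kinase (Tk1) read 3.54 to 4.15 and 2.52 to 2.61 in CHF ketotifen lungs by 2 of its probe sets. By the remaining 1 it was at 4.21, 2.93 and 4.23 there and at 2.35 to 3.35 elsewhere. Counting each gene by its brightest probe set, the 3 CHF ketotifen lungs were all above all 6 sham lungs for 9 of the 11. Near background the gaps could be small: the lowest CHF ketotifen value of Ccne1 was 2.270 and its highest sham value 2.265. The share over all probe sets below the filter was not counted, so the 9 have no background to be read against. Among the 31 members kept the order held for 28, against 14.8% of all kept probe sets. These 28 include the 6 mitotic genes that passed the filter only with the CHF ketotifen arrays. Over all 42 genes on the array, kept or not, the median difference in CHF with ketotifen was 2.17 for mitotic and 0.60 for replication genes. Just outside the filter, with 2 arrays at log2 4 or more, were this Tk1 probe set and a second one of Nusap1, which read 6.14, 3.42 and 5.42 in CHF ketotifen lungs; just inside it, with 3, were Melk, Kif20a and Kif11.

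Other genes of the same pathways, in 4 lists, were counted in the same fit. Of 28 other mitotic genes kept, 17 were called higher in CHF with ketotifen, against 6.36% of all probe sets. A further 26 of the 54 on the array fell below the filter. The median difference in this comparison was 1.47 for the 28 kept and 0.67 over all 54. Whether a gene of this list passed the filter only with the CHF ketotifen arrays was checked for Depdc1 alone. With the drug within CHF 4 were called higher, against 0.822% of all: Depdc1, Shcbp1, Nuf2 and Kif22. Depdc1, a gene expressed in dividing cells, read 2.97, 3.04 and 2.95 in sham placebo, 3.34, 3.06 and 3.03 in CHF placebo, 3.02, 3.05 and 3.00 in sham ketotifen and 5.68, 5.72 and 5.79 in CHF ketotifen lungs, with only the last 3 lungs above 4. Depdc1 passed the filter only with those 3 arrays; its drug difference within CHF was 2.59 (SE 0.15, limma adjusted p = 9.37e-06) and its difference of differences 2.55 (limma adjusted p = 0.000469). The kinetochore gene Nuf2 differed by 2.16, the kinesin Kif22 by 2.07 and Shcbp1 by 2.43 with the drug within CHF (limma adjusted p = 0.0224, 0.0272 and 0.00674). Cdkn3, a phosphatase of cyclin-dependent kinases, had the largest CHF difference with ketotifen in this list, 4.03 (SE 0.54, limma adjusted p = 0.00235).

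Of 29 other replication genes kept, 9 were called higher and 1 lower in CHF with ketotifen, against 6.36% and 6.61% of all probe sets. With the drug within CHF 0 were called, and the list's median was 0.19. There 10 of the 29 had an unadjusted p under 0.05 by limma, against 2833 of all 16536 probe sets. In CHF with ketotifen the helicase component Cdc45 differed by 1.43 and the polymerase epsilon subunit Pole2 by 1.33 (limma adjusted p = 0.0118 and 0.0135). The polymerase delta subunit Pold2 was lower there, at -0.54 (limma adjusted p = 0.0433). Of 12 G1 cyclins, kinases and E2F factors kept, 1 was higher and 1 lower in CHF with ketotifen. These shares, 8.33% each, were near the 6.36% and 6.61% of all probe sets. Myc, a transcription factor that promotes entry into the cycle, read 7.13, 6.88 and 7.15 in sham placebo, 7.86, 6.91 and 7.28 in CHF placebo, 6.64, 7.25 and 7.15 in sham ketotifen and 9.24, 9.27 and 9.10 in CHF ketotifen lungs. The CHF ketotifen lungs were above all others, and Myc rose with the drug within CHF by 1.86 (SE 0.24, limma adjusted p = 0.00301), with a difference of differences of 1.90 (limma adjusted p = 0.0424). The E2F partner Tfdp2 was lower in CHF with ketotifen by its brightest probe set, at -1.10 (limma adjusted p = 0.0213), where a second probe set gave 0.09. Of 21 brakes of the cycle kept 2 (9.52%) were called higher in CHF with ketotifen, near the 6.36% of all probe sets. They were Gadd45g at 1.22 and Gadd45a at 0.61 (limma adjusted p = 0.0162 and 0.0446). With the drug within CHF 0 of the 21 were called. There 3 had an unadjusted p under 0.05 by limma, against 2833 of all 16536 probe sets. Probe sets of Mdm2 disagreed, with -0.04 for the brightest and 0.64 and 1.37 for the others.

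Markers of some other cells moved with the mitotic genes and those of others did not. The 15 macrophage markers measured averaged 8.38, 7.14 and 7.99 in sham placebo lungs, 9.70, 8.72 and 8.60 in CHF placebo lungs, 8.21, 8.01 and 8.21 in sham ketotifen lungs and 9.98, 9.77 and 9.89 in CHF ketotifen lungs. As with the mitotic genes, CHF placebo lung 1 was nearest to the CHF ketotifen lungs. Of the 15, 11 were called higher in CHF with ketotifen, against 6.36% of all probe sets. With the drug within CHF 0 were called, and the median was 0.95. There 6 had an unadjusted p under 0.05 by limma, against 2833 of all 16536 probe sets. The 7 endothelial markers averaged 10.42 in CHF placebo lung 1 and 10.25 to 10.68 in CHF ketotifen lungs, against 11.17 to 11.55 in the other 8. In CHF with ketotifen 5 of the 7 were called lower and 1 higher, against 6.61% and 6.36% of all probe sets. The 4 neutrophil markers kept had a median difference of 2.19 with the drug within CHF, and Il1r2, the interleukin 1 decoy receptor, was called at 2.62 (SE 0.26, limma adjusted p = 0.000517). Their means were 7.17 to 8.60 in CHF ketotifen lungs, but 5.20 in CHF placebo lung 1, the second lowest of the 12. Mast cell markers were called higher in CHF with placebo, 4 of 7, where 0.169% of all probe sets were called in either direction. Their median was -0.47 with the drug within CHF. That median was -0.06 for the 4 T cell markers and 0.08 for the 8 epithelial markers kept. None of the 15 macrophage markers fell below the filter, and of 10 T cell markers on the array 6 did. The part of a changed share of macrophages, neutrophils, mast cells or endothelium in the values of the cell cycle genes was not tested.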

How the data were processed

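The authors deposited log2 expression per probe set. The submitters' processing notes name GCRMA and R 2.5.0; GCRMA models background from the base content of probes, normalizes arrays to each other and summarizes probe sets. Further settings: not given in the sources used here. The members and lists were chosen with earlier results of these data known. Of 31099 rows 57 controls were left out. Symbols came from the platform annotation, where 20826 of 31042 probe sets had 1 symbol, 436 several and 9780 none; only those with 1 were named.

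All 12 arrays were fitted with limma 3.58.1 in R 4.3.3 as 4 group means (8 residual degrees of freedom, eBayes with intensity trend), two-sided, with Benjamini-Hochberg adjustment over the 16536 probe sets at log2 4 or more on at least 3 arrays. Comparisons numbered 6: CHF against sham under placebo and under ketotifen, ketotifen against placebo in CHF and in sham, the interaction, and the average surgery effect. Comparisons that share a group share its arrays. Genes were counted by the kept probe set of highest mean. Values on every array are given for members called in any comparison; other pathway genes are named if called or among the 4 of smallest p in their list. The fit was tested on simulated data for ketotifen against placebo in CHF over 16536 probe sets, where it recovered 58% of 50 changed by log2 1, 86% by 2, 96% by 3 and 98% by 4, with 11 false calls. The number of arrays limits the precision. Alternatives covered the filter, the variance model, the groups fitted, the normalization, array weights, averaged and left-out arrays and a replicate block. Promoters and motif counts use the RefSeq table of GRCr8; Aurkb, Ccna2, Mcm4, Racgap1, Rrm2, Tpx2 and Ube2c were not in it.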

Additional observations from a re-analysis of the deposited data

Results flagged for a closer look

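The surgery effect differed by drug for Cdca3, with a log2 interaction of 1.88 (limma adjusted p = 0.0409), a call lost in several of the settings below. It differed also for Depdc1, with 2.55 (limma adjusted p = 0.000469), and for Myc, with 1.90 (limma adjusted p = 0.0424). Depdc1 had passed the filter only with the CHF ketotifen arrays, so that its call adds little. For Aurkb the drug differences in sham and CHF lungs ran in opposite directions in every sample, and for Pola2 the surgery differences with placebo and ketotifen did. Aurkb's interaction was 4.77 (limma adjusted p = 0.115) and Pola2's was -2.24 (limma adjusted p = 0.0549), so neither difference passed the threshold.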

How the results depend on the processing

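Counts of member probe sets called, of 33 kept, depended on single arrays. In CHF against sham with placebo 0 were called, 10 with array weights (19.6% of all probe sets) and 0 to 2 when each array was left out in turn. In ketotifen against placebo within CHF 6 were called, against 3 with a filter of log2 5, 10 with quantile normalization (1.30% of all probe sets), 30 with array weights (25% of all, against 1.22%), and 1 each with only the groups compared, with CHF ketotifen arrays 1 and 3 averaged, and without the 3 arrays of widest beta-actin difference; leaving out each array gave 1 to 25. In CHF against sham with ketotifen 27 were called (13.0% of all), 18 with CHF ketotifen arrays 1 and 3 averaged (5.76%), 16 without the 3 arrays (5.95%) and 17 to 20 leaving out each array. In ketotifen against placebo within sham 0 were called, 3 with array weights (4.25% of all) and 0 to 2 leaving out each array. The interaction called 1, 17 with array weights (6.85% of all) and 0 to 13 leaving out each array. It called 0 without the filter, with the filter of log2 5, with quantile normalization, with the averaged arrays and without the 3 arrays. The average surgery effect called 26, 24 with the averaged arrays, 2 without the 3 arrays (1.19% of all) and 22 to 28 leaving out each array. No named member changed direction among called values. Without the 3 arrays, sham placebo array 1 stood alone for its group, so fewer arrays and the beta-actin difference cannot be told apart there. The other causes of these shifts were not tested. Array weights came from limma's gene-by-gene algorithm because the default did not converge.

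The replicate numbers did not pair the samples: of 18 pairs of arrays with 1 number 5 had a correlation of deviations over 0.1 (range -0.35 to 0.26), and 3 of 12 arrays correlated best with their own number. With the replicate block the interaction called 0 member probe sets instead of 1, the drug comparison within CHF 6 and CHF against sham with ketotifen 26.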
